A study of Rattus norvegicus with 9 samples.

Results

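The interleukin-1 (IL-1) and interleukin-33 (IL-33) receptor axis was read in cultured adipose-derived mesenchymal stem cells of the rat as 9 of the 35362 genes in the deposited count table, matched by symbol: the receptor genes Il1rl1, Il1r1, Il1r2, and Il1rap, the ligand genes Il33, Il1a, Il1b, and Il18, and Il1rn, the gene of the secreted IL-1 receptor antagonist. The set was chosen by measured values, because Il1rl1 was abundant and stood at successively higher levels in SASCs, PASCs, and EASCs, so the levels of Il1rl1 are given below as a description, without a test. SASCs, PASCs, and EASCs are the stem cells grown from the groin subcutaneous, the perirenal, and the epididymal fat of Sprague Dawley rats that were male and 6 weeks of age, without genetic change or treatment, in high glucose medium with serum, and their RNA was taken at passage 3. Each group held 3 samples, the methods tell of more wells per group, and the labels do not say whether samples came from separate rats, so every p-value measures only the spread between these samples, which may be technical.

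Total counts were between 17591916 and 30299032 per sample, and 3 counts of a gene corresponded to 0.104 to 0.159 CPM, the count of a gene scaled to a common library size, a limit that covers counting error only. Genes of ribosomal RNA took 10.4% to 15.5% of all counts of the SASC samples, 22.4% to 32.9% for PASCs, and 15.9% to 40.3% for EASCs. For that reason CPM here were scaled with edgeR's TMM factors, which a few abundant genes affect less than they affect the totals. All 9 adipose stem cell markers in the table, such as Thy1, Nt5e, and Pdgfra, were detected in each group, but at different levels. In SASCs, PASCs, and EASCs, Pdgfra averaged 1543, 278, and 235 CPM, Thy1 545, 777, and 405 CPM, and Nt5e 339, 316, and 637 CPM. The list summed to 4155 to 4281 CPM for SASCs, 3794 to 3969 CPM for PASCs, and 4970 to 5038 CPM for EASCs.

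Il1rl1 encodes ST2, the receptor of IL-33, which occurs as a membrane receptor and as a shorter secreted form that captures the ligand. IL-33 is kept in the nucleus of stromal and endothelial cells and acts as an alarm signal once released, and in fat it is known for sustaining group 2 innate lymphoid cells and regulatory T cells. IL-1alpha and IL-1beta act through the type 1 receptor encoded by Il1r1, whereas the type 2 receptor of Il1r2 is a decoy that does not signal. The co-receptor IL-1RAcP, encoded by Il1rap, is needed for signalling by both ST2 and the type 1 receptor, and the antagonist of Il1rn occupies the type 1 receptor without activating it.

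RefSeq sequence around the gene start was found for 8 of the 9 genes, all but Il1r2, on the assembly GRCr8. Of these, 4 promoters are shown, because Il1rl1, its ligand gene Il33, and the opposed IL-1 genes Il1rn and Il1a each had a different pattern over the 3 cell groups. Each stretch runs from 250 bases before to 50 bases after the annotated start, 5′ to 3′ on the strand of the gene, at chr9:50203388-50203687 (+) for Il1rl1, chr1:237115323-237115622 (+) for Il33, chr3:27520072-27520371 (+) for Il1rn, and chr3:136989968-136990267 (-) for Il1a. Capitals mark matches, on either strand, to the TATA box TATAAA, the AP-1 motif TGANTCA, or the GATA motif AGATAA.
Il1rl1: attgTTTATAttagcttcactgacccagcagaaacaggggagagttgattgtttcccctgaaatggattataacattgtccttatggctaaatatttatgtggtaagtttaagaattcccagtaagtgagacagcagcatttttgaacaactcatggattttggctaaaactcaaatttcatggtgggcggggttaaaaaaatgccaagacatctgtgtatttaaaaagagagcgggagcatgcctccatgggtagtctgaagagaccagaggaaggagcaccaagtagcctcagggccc
Il33: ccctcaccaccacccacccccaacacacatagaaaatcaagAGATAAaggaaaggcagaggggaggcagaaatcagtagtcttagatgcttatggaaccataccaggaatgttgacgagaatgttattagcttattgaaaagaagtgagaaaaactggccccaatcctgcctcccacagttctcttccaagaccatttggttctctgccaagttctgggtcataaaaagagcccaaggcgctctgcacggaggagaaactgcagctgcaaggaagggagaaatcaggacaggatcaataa
Il1rn: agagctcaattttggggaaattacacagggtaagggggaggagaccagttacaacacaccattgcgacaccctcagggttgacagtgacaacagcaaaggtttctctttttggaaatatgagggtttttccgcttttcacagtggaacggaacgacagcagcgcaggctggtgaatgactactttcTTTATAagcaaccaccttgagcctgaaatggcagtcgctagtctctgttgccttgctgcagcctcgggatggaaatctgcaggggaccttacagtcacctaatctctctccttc
Il1a: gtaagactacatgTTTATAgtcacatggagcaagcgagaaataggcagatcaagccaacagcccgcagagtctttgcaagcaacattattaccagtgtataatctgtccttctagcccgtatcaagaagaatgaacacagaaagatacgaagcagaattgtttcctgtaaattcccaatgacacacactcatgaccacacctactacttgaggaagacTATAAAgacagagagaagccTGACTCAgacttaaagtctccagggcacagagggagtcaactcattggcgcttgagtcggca

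In the Il1rl1 promoter the only match was to the TATA box, on the opposite strand and beginning at -246, where negative positions count bases before the start. The Il33 promoter held a GATA match at -209, and that of Il1rn a TATA match on the opposite strand at -64. In the Il1a promoter a TATA box began at -32 and an AP-1 match at -12, and a further TATA match lay on the opposite strand at -237. The C/EBP motif TTGCNNAA and the NF-kappaB consensus were searched in the same way and were not found in these 4 windows, but the latter matched once in each of the Il1r1 and Il1rap promoters, beginning at -135 and -85. Among all 27457 promoters of this length, 14.3% held the TATA box, 11.3% the GATA motif, 10.5% the C/EBP motif, 7.33% the AP-1 motif, and 4.16% the NF-kappaB consensus. The motifs do not overlap one another in the printed sequences, and a match describes letters only.

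Il1rl1 was the most abundant of the receptor genes per length in PASCs and EASCs. In the samples numbered 1 to 3, its level was 375, 340, and 356 CPM for SASCs, 778, 827, and 839 CPM for PASCs, and 1564, 1573, and 1488 CPM for EASCs. The 3 groups did not overlap, but these values chose the set, so their separation is a description only. Group means were 357 ± 17.7 CPM (SD, n = 3) for SASCs, 815 ± 32.3 CPM for PASCs, and 1542 ± 46.7 CPM for EASCs, which is 2.28-fold higher in PASCs and 4.32-fold higher in EASCs than in SASCs, and 1.89-fold higher in EASCs than in PASCs. Per length, as FPKM, the scaled CPM divided by the gene length in kilobases, Il1rl1 ranked between 225 and 239 among 21519 protein-coding genes in EASCs, between 447 and 497 in PASCs, and between 914 and 1029 in SASCs. The counts sum over the whole gene, at chr9:47133946-47184159 on the + strand of rn6, and do not separate the membrane form of ST2 from the secreted one. In bulk RNA, fewer cells that express a gene and less of its RNA per cell cannot be told apart, and this holds for every level given here.

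**Figure D1:**
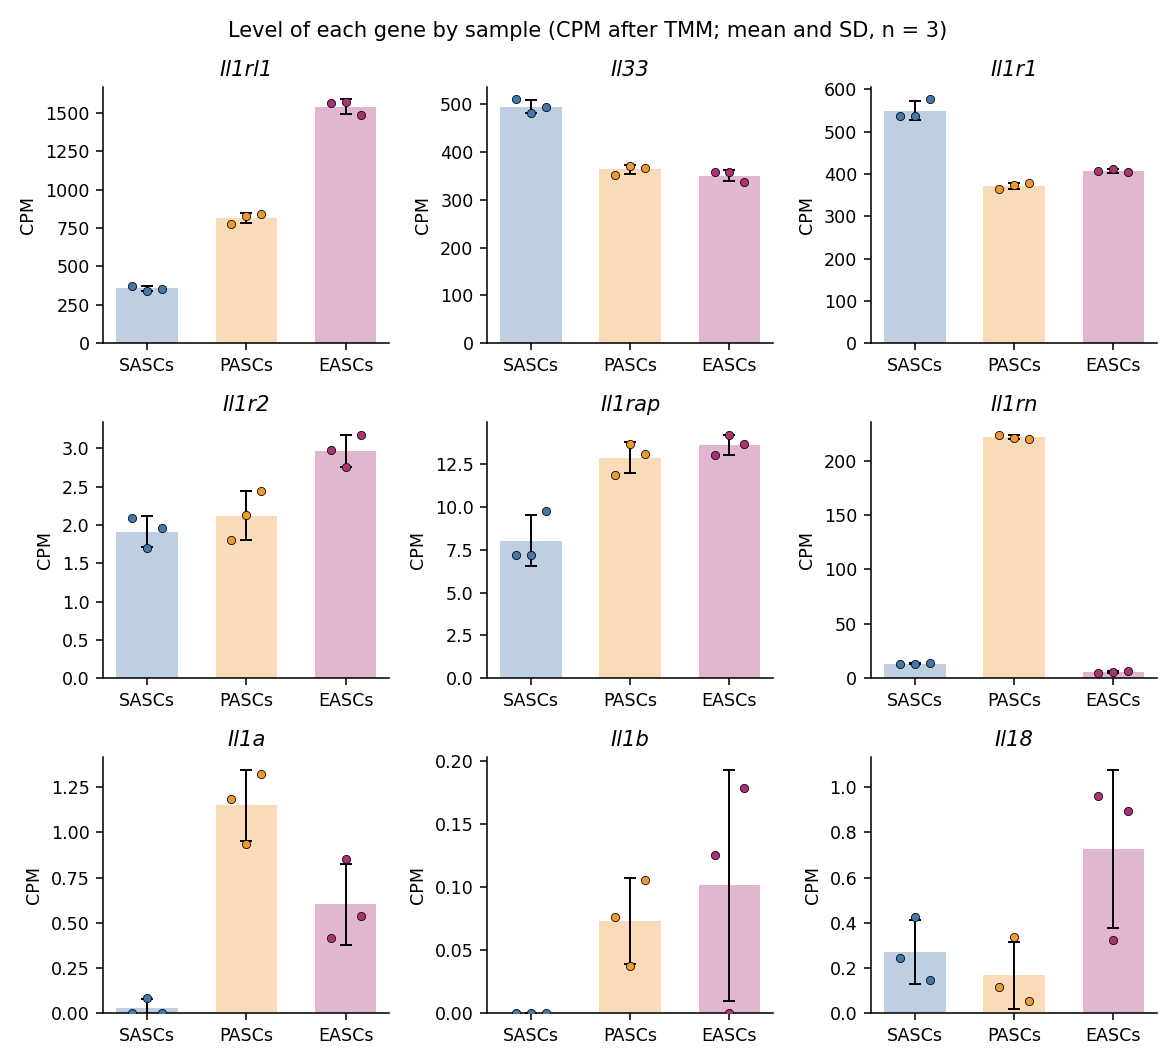
Level of each of the 9 genes in CPM after TMM scaling, with 1 point per sample, bars at the mean of 3 samples, and error bars of 1 SD; each panel has its own axis, starting at 0. Il1rl1 stood at 1488 to 1573 CPM in EASCs against 340 to 375 CPM in SASCs, and Il1rn at 220 to 224 CPM in PASCs against 4.48 to 14.3 CPM in the other samples.

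Il1r1, the gene of the signalling IL-1 receptor, was highest in SASCs, where Il1rl1 was lowest. It measured 536, 537, and 576 CPM for SASCs, 364, 374, and 377 CPM for PASCs, and 407, 412, and 403 CPM for EASCs. Every SASC sample was above every other sample, and the EASC samples stood slightly above the PASC samples. By edgeR's quasi-likelihood test with Benjamini-Hochberg adjustment over the 14770 genes tested, the log2 fold change against SASCs was -0.43 in EASCs (SE 0.0525, adjusted p = 4.34e-08) and -0.56 in PASCs (SE 0.0527, adjusted p = 2.92e-10). Neither change reached the fold change of 2 that the study requires of a differentially expressed gene (DEG). The difference of 0.13 on the log2 scale between EASCs and PASCs had an adjusted p of 0.0589 by edgeR.

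Il1rap, whose product both receptors need, was expressed at a low level and was higher in both visceral groups. Its counts were 206, 169, and 200 for SASCs, 310, 365, and 247 for PASCs, and 311, 350, and 306 for EASCs, which gave 7.16, 7.17, and 9.76 CPM, 11.9, 13.6, and 13.1 CPM, and 13.02, 14.2, and 13.7 CPM. No SASC sample reached the lowest PASC or EASC sample, whereas PASCs and EASCs overlapped. The log2 fold change was 0.77 in EASCs (SE 0.121, edgeR, adjusted p = 2.80e-06) and 0.69 in PASCs (SE 0.122, edgeR, adjusted p = 1.60e-05), both below the 2-fold mark. Scaling by total counts, which moved the median log2 fold change of all genes to -0.39 in EASCs and -0.33 in PASCs, lowered these values to 0.38 and 0.36, and edgeR's adjusted p rose to 0.0710 and 0.0908. Il1rap overlaps LOC103690593, a gene with at most 10 counts in any sample.

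The decoy receptor gene Il1r2 was expressed at a low level, with 60, 40, and 40 counts for SASCs, 47, 57, and 46 for PASCs, and 71, 68, and 71 for EASCs. In CPM, the EASC samples (2.76 to 3.18) were above both other groups, which overlapped (1.70 to 2.09 in SASCs and 1.80 to 2.44 in PASCs). Against SASCs, EASCs differed by 0.63 on the log2 scale (SE 0.230, edgeR, adjusted p = 0.0175), and the test missed the threshold of 0.05 without the SASC sample numbered 2 (0.55, adjusted p = 0.0670) or the EASC sample numbered 3 (0.58, adjusted p = 0.0523) and with scaling by total counts (0.22, adjusted p = 0.523). For PASCs against SASCs the value was 0.14 (edgeR, adjusted p = 0.625), and it turned to -0.18 when total counts were used for scaling.

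Per length, the make-up of the receptor RNA differed between the groups. Of the summed FPKM of the 7 receptor genes Il1rl1, Il1r1, Il1rl2, Il1rap, Il1r2, Il18r1, and Il18rap, Il1rl1 took 34.2% ± 1.84 (SD, n = 3) in SASCs, 56.1% ± 0.479 in PASCs, and 69.5% ± 0.987 in EASCs. Il1r1 took 46.1% ± 0.601 in SASCs, 22.5% ± 0.305 in PASCs, and 16.1% ± 0.127 in EASCs, so the leading receptor gene was Il1r1 in SASCs and Il1rl1 in the other 2 groups. The FPKM of Il1rl1 was 0.742 ± 0.0498 times that of Il1r1 in SASCs, 2.50 ± 0.0541 times in PASCs, and 4.31 ± 0.0940 times in EASCs (SD, n = 3). The shared co-receptor gene stood far below both, and the ratio of Il1rl1 to Il1rap in FPKM was 24.4 ± 4.38 in SASCs, 34.1 ± 1.39 in PASCs, and 60.8 ± 3.26 in EASCs. These ratios contain the Il1rl1 levels that chose the set and were not tested.

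**Figure D2:**
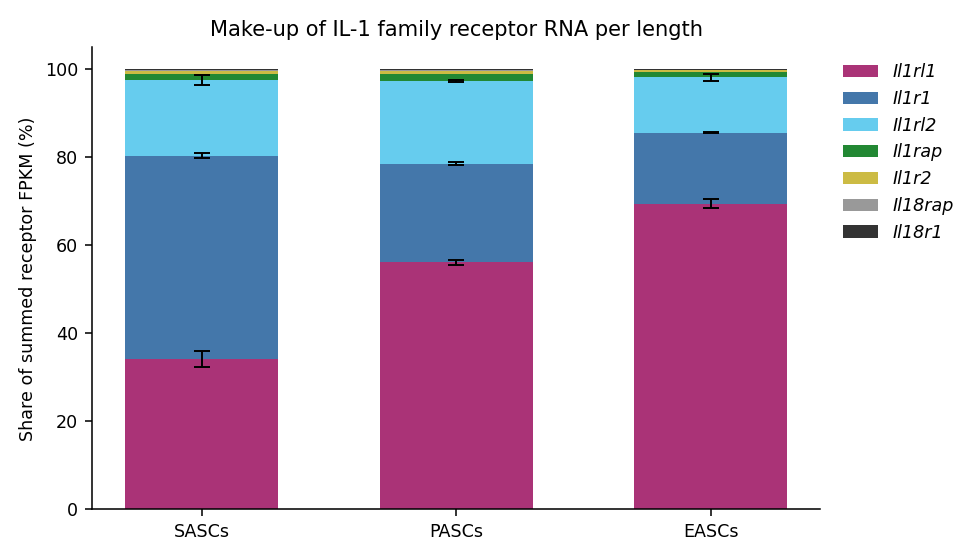
Share in percent of the summed FPKM of 7 IL-1 family receptor genes in each group, as the mean of 3 samples, with error bars of 1 SD at the upper edge of the 3 largest segments. The Il1rl1 segment takes 34.2% in SASCs, 56.1% in PASCs, and 69.5% in EASCs, while the Il1r1 segment takes 46.1%, 22.5%, and 16.1%.

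Il33, the gene of the ST2 ligand, was among the abundant genes of all 3 groups. It measured 510, 482, and 494 CPM for SASCs, 353, 372, and 368 CPM for PASCs, and 357, 358, and 338 CPM for EASCs. All SASC samples were above the rest, and PASCs and EASCs overlapped. Against SASCs the log2 fold change was -0.50 in EASCs (SE 0.0530, edgeR, adjusted p = 3.79e-09) and -0.45 in PASCs (SE 0.0529, edgeR, adjusted p = 2.91e-08), so the ligand gene fell by less than 2-fold in both. Between EASCs and PASCs the value was -0.05 (edgeR, adjusted p = 0.502). Ligand and receptor gene had different orders over the groups, and the FPKM ratio of Il1rl1 to Il33 was 0.249 ± 0.00517 in SASCs, 0.772 ± 0.0139 in PASCs, and 1.52 ± 0.00464 in EASCs (SD, n = 3). Il33 lies at chr1:248112636-248147030 on the + strand of rn6.

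Among the IL-1 ligands, Il1a was nearly silent in SASCs and was detected at a low level in all 6 visceral samples. The samples numbered 1 to 3 had 0, 2, and 0 counts for SASCs, 31, 25, and 25 for PASCs, and 10, 21, and 12 for EASCs. No SASC sample reached any PASC or EASC sample in CPM, and the PASC samples were above the EASC samples. Summed over each group and scaled, Il1a had 41.1 times as many counts in PASCs as in SASCs (95% counting interval 11.01 to 345) and 22.1 times as many in EASCs (5.75 to 188), intervals that cover counting error only. The SASC sample numbered 2 held both counts of its group. Il1a passed the filter on low counts only through the groups where it was high, so that a test against SASCs had to differ and is not given. The PASC and EASC difference, -0.91 from PASCs to EASCs, had an adjusted p of 0.129 by edgeR.

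Il1b was detected at a few counts at most, with 0 counts in every SASC sample, 2, 1, and 2 counts in PASCs, and 3, 0, and 4 counts in EASCs. Il1b did not pass the filter and was not tested. Il18, encoding a ligand with its own receptor pair, was sparse as well, with 7, 10, and 3 counts for SASCs, 3, 9, and 1 for PASCs, and 23, 8, and 20 for EASCs. The EASC sample numbered 2 lay within the range of SASCs in CPM, so the groups overlapped. Il18 had a log2 fold change in EASCs of 1.38 against SASCs (SE 0.581, edgeR, adjusted p = 0.0366), a call that DESeq2 (adjusted p = 0.0654), limma-voom (0.0537), no filter (0.0603), and scaling by total counts (0.159) ended. Against SASCs the test failed without any 1 of the SASC samples numbered 1 and 3 and the EASC samples numbered 1 and 3, with edgeR's adjusted p between 0.104 and 0.157. Its summed and scaled counts in EASCs were 3.97 times those in PASCs (95% counting interval 2.13 to 7.96), an interval that covers counting error only. Leaving out single samples gave log2 fold changes of 1.66 to 2.96 for Il18 between EASCs and PASCs. Il18 passed the filter through 2 EASC samples and 1 SASC sample, and since no PASC sample reached its level, tests against PASCs are not given.

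Il1rn, the gene of the receptor antagonist, had the widest range of the 9 genes among those with more than a few counts, and it was high in PASCs alone. Its counts were 384, 300, and 293 for SASCs, 5853, 5913, and 4152 for PASCs, and 107, 134, and 144 for EASCs. In CPM these were 13.3, 12.7, and 14.3, then 224, 221, and 220, then 4.48, 5.43, and 6.44. The groups were far apart, with PASCs on top and EASCs at the bottom. The log2 fold change against SASCs was 4.04 in PASCs (SE 0.0752, edgeR, adjusted p = 1.52e-25), a 16.5-fold rise, and -1.31 in EASCs (SE 0.0991, edgeR, adjusted p = 4.14e-12). Compared directly, EASCs were 40.7-fold lower than PASCs (log2 fold change -5.35, SE 0.0849, edgeR, adjusted p = 7.41e-26). The FPKM of Il1rn equalled 1.15 ± 0.0321 times that of Il1r1 in PASCs, against 0.0474 ± 0.00131 times in SASCs and 0.0259 ± 0.00482 times in EASCs (SD, n = 3). Il1rn lies at chr3:1450536-1468624 on the + strand of rn6, and overlaps Il36b on the other strand in part. Il36b had at most 22 counts in a sample, and since the counting is not stated to use strand, a few reads could belong to either gene.

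Leaving out Il1rl1, the untested Il1b, and the sparse Il1a and Il18, which not all groups carried past the filter, 5 of the 9 genes were counted against the background of all genes tested. Il1rn was the 1 DEG of the 5 in each comparison, where 27.8% of all genes were DEGs in EASCs and 26.9% in PASCs against SASCs and 7.39% between EASCs and PASCs. Without the fold threshold, 5 had an adjusted p under 0.05 by edgeR in EASCs against SASCs, 4 in PASCs against SASCs, and 1 between EASCs and PASCs, where 69.7%, 69.2%, and 30.7% of all genes had one. The median log2 fold change of the 5 genes was -0.43, 0.14, and 0.08 in the 3 comparisons, beside 0.01, -0.01, and -0.01 for all genes. With Il1a and Il18 the DEGs numbered 3, 2, and 2 of 7 and the first median was 0.63, counts that are partly fixed by the filter and are not read against the background.

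The remaining genes of the family were mostly sparse. Of 16 further ligand and receptor genes of the family, 12 were in the table and 6 passed the filter. Il1rl2, encoding the IL-36 receptor, led them per length, with 24.4, 37.0, and 37.9 FPKM in SASCs, PASCs, and EASCs, and had 49.9 ± 4.12 CPM for SASCs, 75.5 ± 1.77 CPM for PASCs, and 77.5 ± 3.65 CPM for EASCs (SD, n = 3). Its log2 fold change was 0.64 in EASCs (SE 0.0641, edgeR, adjusted p = 1.19e-09) and 0.60 in PASCs (SE 0.0641, edgeR, adjusted p = 3.79e-09), values that shrank to 0.24 (adjusted p = 0.198) and 0.28 (adjusted p = 0.132) with scaling by total counts. Il18rap, the co-receptor gene of the IL-18 receptor, was upregulated in PASCs against SASCs (log2 fold change 2.08, SE 0.382, edgeR, adjusted p = 2.73e-05) from a low level, 0.528 ± 0.294 CPM in SASCs and 2.15 ± 0.146 CPM in PASCs. Il18r1, its partner, had 10 to 40 counts per sample and log2 fold changes of -0.22 in EASCs and -0.76 in PASCs that missed the threshold (edgeR, adjusted p = 0.600 and 0.0765).

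The further inhibitor genes Il18bp and Sigirr were higher in SASCs. Il18bp, which encodes the secreted protein that binds IL-18, had a lower level in both visceral groups, with 10.9 ± 0.564 CPM in the PASC and 11.004 ± 1.20 CPM in the EASC samples against 16.4 ± 1.37 CPM in the SASC samples (SD, n = 3). The log2 fold changes were -0.59 (SE 0.108, edgeR, adjusted p = 2.23e-05) and -0.58 (SE 0.108, edgeR, adjusted p = 2.85e-05). Sigirr, encoding an inhibitory receptor of the family, had 14 to 28 counts per SASC sample, 1 to 6 per PASC sample, and 3 to 11 per EASC sample. Summed over each group and scaled, its counts were 0.180 times those of SASCs in PASCs (95% counting interval 0.0855 to 0.345) and 0.397 times in EASCs (0.237 to 0.646). Il36b, a ligand gene of the IL-36 receptor, had 18 to 22 counts per SASC sample, 13 to 20 per PASC sample, and 0 to 3 per EASC sample, and its summed and scaled counts in EASCs were 0.0685 times those in SASCs (95% counting interval 0.0181 to 0.185). Sigirr passed the filter through 3 SASC samples and 1 EASC sample and Il36b through SASCs and PASCs, where they were high, so tests of these differences are not given.

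Il1r2, Il1r1, Il1rl2, Il1rl1, Il18r1, and Il18rap lie side by side on chromosome 9, and the neighbouring genes were read to see whether they shared the order of Il1rl1. From Map4k4 to Tmem182 the region at chr9:46657922-47588677 held 17 genes, of which 10 were tested. The end of Il1rl1 and the start of Il18r1 are 550 bases apart, yet in EASCs Il1rl1 averaged 209 FPKM and Il18r1 0.312 FPKM. Map4k4, encoding a kinase, rose in EASCs by a log2 fold change of 0.40 (SE 0.0522, edgeR, adjusted p = 1.67e-07), a change that was 0.01 with scaling by total counts, and was at 0.03 in PASCs (edgeR, adjusted p = 0.651). Slc9a4, which encodes a sodium and proton exchanger, had 0 counts in all SASC samples, 5 to 12 in PASCs, and 13 to 18 in EASCs. It passed the filter only through EASCs, where it was high, so that a test against SASCs had to differ and is not given. Slc9a2, of the same transporter family, was not tested and had 0 counts in SASCs, 19 in PASCs, and 33 in EASCs, summed over 3 samples. Mfsd9 was near 7 CPM in each group (log2 fold change 0.13 in EASCs and 0.24 in PASCs, edgeR, adjusted p = 0.475 and 0.196), and Tmem182 had at most 12 counts in a group. LOC103690522, an uncharacterized gene inside Map4k4 on the other strand, was lower in EASCs and PASCs (log2 fold change -1.56 and -1.65) at under 3 CPM. In group means, Il1r2, Il1rl2, Map4k4, Slc9a4, and Slc9a2 had the order of Il1rl1. So did the untested RGD1564447, with 0, 7, and 26 counts in SASCs, PASCs, and EASCs, summed over 3 samples. Il1r1, Il18r1, Il18rap, Mfsd9, Tmem182, and LOC103690522 did not. For some that shared the order the groups overlapped, such as PASCs and EASCs for Il1rl2.

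**Figure D3:**
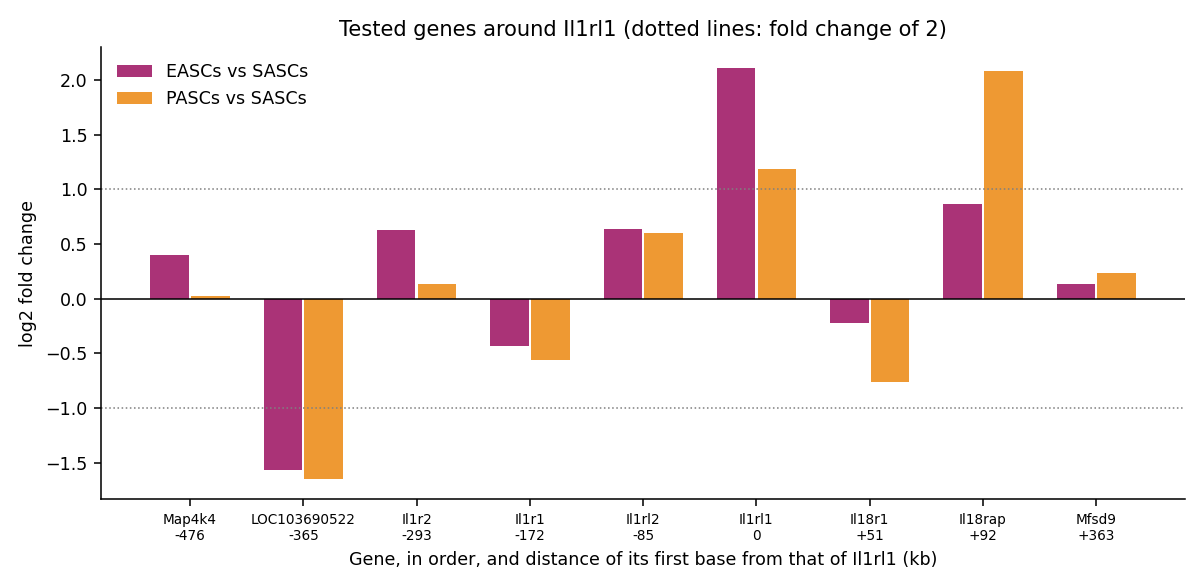
Log2 fold change against SASCs of the genes tested around Il1rl1 on chromosome 9, in genomic order, with the distance in kb of each gene's lowest coordinate from that of Il1rl1; dotted lines mark a fold change of 2 and Slc9a4, at 0 counts in SASCs, is left out. Il1rl1 stands at 2.11 in EASCs and 1.19 in PASCs, while Il1r1 is below 0 in both and Il18rap exceeds the 2-fold line in PASCs only.

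Genes that carry the signal from these receptors mostly stayed within the 2-fold threshold. Of 35 genes listed, 34 were tested, and 3 were downregulated and 0 upregulated in EASCs against SASCs, where 14.2% of all genes were downregulated and 13.6% upregulated. Without the fold threshold, 14 were lower and 3 higher in EASCs (34.3% and 35.5% of all genes were) by edgeR's adjusted p, 4 were higher at an unadjusted p under 0.05, and DESeq2 and limma-voom also gave 0 upregulated. The 3 DEGs were Irak3 (log2 fold change -1.56), encoding an inhibitory kinase of the pathway, Nfkbiz (-1.54), encoding an atypical inhibitor of NF-kappaB that is itself induced by IL-1, and Peli2 (-1.43), encoding a ubiquitin ligase acting on the IRAK kinases. In PASCs against SASCs, 4 genes were downregulated, where 14.9% of all genes were, namely Peli2 (-1.96), Nfkbiz (-1.37), Irak3 (-1.13), and Nfkbia (-1.01), the last of which encodes IkappaBalpha. Map2k6, a kinase gene of the p38 branch, had 1 to 26 counts per sample in overlapping groups. It also passed the thresholds in PASCs, the 1 upregulated gene of the list (12.0% of all genes were upregulated). No SASC sample reached the filter's level, so the outcome is partly fixed by the filter and its test is not given. The call was also lost with scaling by total counts and without PASC sample 2, PASC sample 3, or SASC sample 2. Nfkbia dropped below 2-fold without PASC sample 1 (-0.90) or SASC sample 1 (-0.96). The list's median log2 fold change was -0.18 in both comparisons, beside 0.01 and -0.01 for all genes. With scaling by total counts it was -0.58 in EASCs and -0.51 in PASCs, beside -0.39 and -0.33 for all genes.

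The adaptor Myd88, which binds the receptor complex, stood at 58.6 ± 0.895 CPM for SASCs, 41.2 ± 1.39 CPM for PASCs, and 33.7 ± 2.72 CPM for EASCs (SD, n = 3). It fell by 0.80 on the log2 scale in EASCs (SE 0.0681, edgeR, adjusted p = 4.27e-11) and by 0.51 in PASCs (SE 0.0671, edgeR, adjusted p = 1.85e-07). Traf6, the ubiquitin ligase gene further down the pathway, fell by 0.41 in EASCs (SE 0.118, edgeR, adjusted p = 0.00323) and by 0.51 in PASCs (SE 0.119, edgeR, adjusted p = 0.000480). Irak4, encoding the first kinase of the complex, was at -0.18 on the log2 scale in EASCs (edgeR, adjusted p = 0.107) and fell by 0.48 in PASCs (edgeR, adjusted p = 0.000161). Between EASCs and PASCs, where 7.39% of all genes were DEGs, 0 of the 34 genes were by edgeR, DESeq2, or limma-voom, while at an unadjusted p under 0.05 edgeR had 5 higher and 8 lower.

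Of 18 genes of cytokine processing and release, 15 were tested and the directions were mixed. In EASCs against SASCs, 3 were upregulated and 1 downregulated, and in PASCs against SASCs 1 was upregulated and 4 were downregulated. These 4 and 5 DEGs of 15 are close to the 27.8% and 26.9% of all genes that were DEGs. With scaling by total counts the balance in EASCs turned to 1 upregulated and 3 downregulated. The list's median log2 fold changes were -0.09 and 0.12. With scaling by total counts they were -0.47 and -0.21, beside -0.39 and -0.33 for all genes. Nlrp3, the inflammasome sensor gene, was higher in both visceral groups, with 24.2 ± 0.583 CPM in the PASC and 32.0 ± 1.78 CPM in the EASC samples against 9.15 ± 0.774 CPM in the SASC samples (SD, n = 3). Its log2 fold change was 1.81 in EASCs (SE 0.0907, edgeR, adjusted p = 4.62e-16) and 1.41 in PASCs (SE 0.0920, edgeR, adjusted p = 1.78e-13). Casp1, encoding the protease that cleaves the precursors of IL-1beta and IL-18, moved the other way, with 13.7 ± 1.13 CPM for SASCs, 2.91 ± 0.809 CPM for PASCs, and 6.94 ± 0.238 CPM for EASCs. It fell by 2.20 on the log2 scale in PASCs (SE 0.153, edgeR, adjusted p = 6.39e-13) and by 0.98 in EASCs (SE 0.138, edgeR, adjusted p = 4.95e-07). Pycard, the adaptor gene between the sensor and the protease, had 50 to 115 counts per sample in overlapping groups, with log2 fold changes of -0.15 in EASCs and 0.50 in PASCs (edgeR, adjusted p = 0.581 and 0.0494). The latter missed the threshold in 8 alternative settings, with adjusted p from 0.0504 to 0.637, among them DESeq2 (0.0790) and the replicate block (0.0525).

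Gsdmd, encoding the pore protein through which mature IL-1 leaves the cell, rose by a log2 fold change of 1.23 in EASCs (SE 0.0589, edgeR, adjusted p = 1.56e-16), which became 0.84 with scaling by total counts. P2rx7, an ATP-gated channel gene, rose by 1.13 in EASCs (SE 0.321, edgeR, adjusted p = 0.00282) at 15 to 51 counts per sample. It fell below the 2-fold mark without SASC sample 2 (0.98), and scaling by total counts ended the call (0.75, adjusted p = 0.0808). Dfna5, another pore protein gene, fell by 1.06 in EASCs (edgeR, adjusted p = 0.000336) and by 1.32 in PASCs (edgeR, adjusted p = 2.97e-05), and in EASCs it missed 2-fold without SASC sample 1 (-0.96) or EASC sample 3 (-0.90). In PASCs the channel gene Panx1 was downregulated as well (log2 fold change -1.11). Between EASCs and PASCs, Casp1 was the 1 DEG of the 15, higher in EASCs by 1.22 (SE 0.162, edgeR, adjusted p = 8.51e-07), a count close to the 7.39% of all genes that were DEGs.

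Genes that fibroblasts are known to induce on IL-1 exposure were mostly lower in the visceral groups. Of 31 listed, 21 were tested, and in EASCs against SASCs 9 were downregulated and 3 upregulated, while in PASCs 12 were downregulated, or 11 without Lcn2, which reached the filter's level in no PASC sample, and 0 upregulated by edgeR. Of all genes, 14.2% were downregulated and 13.6% upregulated in EASCs, so the 3 upregulated genes are near the background, and 14.9% and 12.0% in PASCs. At an unadjusted p under 0.05 edgeR had 1 gene higher in PASCs, and DESeq2 and limma-voom also gave 0 upregulated. The list's median log2 fold change was -0.88 in EASCs and -1.20 in PASCs, beside 0.01 and -0.01 for all genes. Steap4, a metalloreductase gene, fell by 4.45 in EASCs and 5.00 in PASCs on the log2 scale, where it kept 0.763 ± 0.118 CPM and 0.567 ± 0.436 CPM of the 16.8 ± 1.09 CPM that SASCs had (SD, n = 3). Il6, encoding interleukin-6, stood at 37.8 ± 3.08 CPM for SASCs, 9.53 ± 0.988 CPM for PASCs, and 9.96 ± 0.523 CPM for EASCs, with log2 fold changes of -1.99 in PASCs (SE 0.0978, edgeR, adjusted p = 3.11e-16) and -1.93 in EASCs (SE 0.0972, edgeR, adjusted p = 5.38e-16). Il6 overlaps Kmt2c on the same strand, so some of its reads could belong to that gene. The neutrophil chemokine gene Cxcl1 fell by 2.43 in PASCs (SE 0.115, edgeR, adjusted p = 1.25e-16) and by 1.89 in EASCs (SE 0.109, edgeR, adjusted p = 1.02e-14). Cxcl6, of the same class, had log2 fold changes of -2.01 and -3.13.

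The response genes upregulated by more than 2-fold were Lcn2, Lif, and Ptgs2, all in EASCs. Without the fold threshold, 6 were higher in EASCs (35.5% of all genes were) and 1 in PASCs (34.6%) by edgeR's adjusted p. The 1 was Lif (log2 fold change 0.68, edgeR, adjusted p = 0.000309), which missed the threshold with scaling by total counts (0.34, adjusted p = 0.155). Under that scaling, edgeR had 3 response genes higher in EASCs and 0 in PASCs at an unadjusted p under 0.05. Lif, a cytokine gene of the interleukin-6 family, rose in EASCs by a log2 fold change of 1.48 (SE 0.147, edgeR, adjusted p = 9.16e-10) and averaged 12.2 ± 1.18 CPM there, against 4.37 ± 0.486 CPM for SASCs. Ptgs2, encoding the inducible cyclooxygenase, rose by 1.37 (SE 0.286, edgeR, adjusted p = 0.000130) at 19 to 106 counts per sample. Lcn2, a lipocalin gene, rose by 1.69 in EASCs (SE 0.448, edgeR, adjusted p = 0.00163), with 7 to 16 counts per SASC sample, 1 to 3 per PASC sample, and 19 to 40 per EASC sample. Its summed and scaled counts in PASCs were 0.196 times those in SASCs (95% counting interval 0.0670 to 0.478). Ccl2, the monocyte chemokine gene, measured 164 ± 0.718 CPM for SASCs, 83.6 ± 0.636 CPM for PASCs, and 179 ± 8.21 CPM for EASCs (SD, n = 3). It fell by 0.97 in PASCs (SE 0.0533, edgeR, adjusted p = 4.07e-15), and its log2 fold change of 0.13 in EASCs (SE 0.0518, edgeR, adjusted p = 0.0250) turned to -0.26 (adjusted p = 0.159) with scaling by total counts and missed the threshold without EASC sample 1 or 2 or SASC sample 1 or 2 (adjusted p = 0.0507 to 0.101).

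Compared directly, 5 of the 21 response genes, or 4 of 20 without Lcn2, were higher and 1 was lower in EASCs than in PASCs, where 5.19% and 2.20% of all genes were. The 5 were Ccl7, Vcam1, Ptgs2, and Ccl2, with log2 fold changes of 1.35, 1.29, 1.17, and 1.10, and Lcn2, which had 16.2 times as many summed and scaled counts in EASCs (95% counting interval 7.17 to 45.2). The 1 was Cxcl6 at -1.12. Ptgs2 missed the 2-fold mark without PASC sample 2 (0.94) or EASC sample 2 (0.93). The list's median was 0.53 in this comparison by edgeR and 0.15 by limma-voom, beside -0.01 for all genes by edgeR.

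Markers of other cells that a fat digest could hold were read beside the axis, because ST2 is also known from mast cells and lymphocytes. The mast cell protease genes Cpa3, Tpsab1, Tpsb2, Mcpt2, and Cma1 were at 0 counts in every sample, and of 11 mast cell markers only Kit and Gata2, which other cells express too, reached 1 CPM. Of 10 markers of T cells and innate lymphoid cells, Cd3e, Cd3d, Il13, and Klrg1 were at 0 in every sample, and the summed level of the list was 2.42 to 3.68 CPM for SASCs, 4.15 to 4.71 CPM for PASCs, and 5.36 to 6.35 CPM for EASCs. Of the 3 tested, Il7r was upregulated in EASCs against SASCs (log2 fold change 2.17, edgeR, adjusted p = 1.48e-07), where 13.6% of all genes were. Areg was downregulated (-1.56, edgeR, adjusted p = 0.00108), where 14.2% of all genes were. Gata3 also passed the thresholds as higher in EASCs (log2 fold change 2.29). It reached the filter's level in 1 SASC sample and in 3 PASC and 3 EASC samples, so its test is partly fixed by the filter and is not given. Il7r averaged 0.819, 1.42, and 3.79 CPM in SASCs, PASCs, and EASCs, the order of Il1rl1, Gata3 averaged 0.298, 1.87, and 1.45 CPM, and Areg 1.80, 1.14, and 0.613 CPM. The mast cell list summed to 9.18 to 10.2 CPM for SASCs, 3.44 to 5.13 CPM for PASCs, and 21.2 to 23.4 CPM for EASCs, of which Gata2 gave 0.422, 2.15, and 18.3 CPM on average. Kit was highest in SASCs, with 8.81, 1.70, and 3.45 CPM, and was downregulated in EASCs (log2 fold change -1.34, edgeR, adjusted p = 6.86e-08) and PASCs (-2.37, adjusted p = 7.71e-12).

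The summed level of macrophage markers had the same order over the groups as Il1rl1. All 13 in the table were detected, the sum was 100.4 to 111 CPM for SASCs, 159 to 162 CPM for PASCs, and 290.1 to 297 CPM for EASCs, and 11 were upregulated DEGs in EASCs (13.6% of all genes were) and 5 in PASCs (12.0%). Cd163, a scavenger receptor gene of macrophages, went the other way in PASCs (log2 fold change -1.88, edgeR, adjusted p = 3.55e-16), the 1 downregulated DEG of the list. Mrc1 in EASCs dropped below 2-fold with DESeq2, with scaling by total counts, and without EASC sample 3 or SASC sample 1, as did C1qb and Itgam in PASCs with scaling by total counts (0.92 and 0.93). Mesothelial markers, 11 in the table, summed to 21.6 to 23.4 CPM for SASCs, 227 to 229 CPM for PASCs, and 193 to 207 CPM for EASCs, and 9 were tested. Upk3b, Krt18, and Bnc1 passed the filter only through visceral samples, and of the other 6 tested, 5 were upregulated in EASCs and 6 in PASCs. The 9 endothelial markers summed to 59.9 to 60.6 CPM for SASCs, 14.99 to 17.9 CPM for PASCs, and 41.9 to 45.7 CPM for EASCs. The part of these cells in the levels of Il1rl1, Il1rn, Il1a, Nlrp3, and the response genes was not tested. The share of ribosomal RNA was also higher in PASCs and EASCs, and with those genes removed the log2 fold change of Il1rl1 was 2.12 in EASCs and 1.19 in PASCs, against 2.11 and 1.19 with them. Scaling by total counts instead of TMM gave 1.72 and 0.87.

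Finally, the genes whose pattern over the 9 samples came closest to that of Il1rl1 were sought among 8566 genes with a mean of at least 10 CPM, as the root mean square difference of centred log2 CPM. Among the closest were Aplp1 (0.0942), Akap2 (0.104), Gsap (0.107), and Mfge8 (0.113), none of these on chromosome 9. Aplp1 averaged 7.20 CPM for SASCs, 17.9 CPM for PASCs, and 32.7 CPM for EASCs. For Il33 the 5 closest were Mapk6 (0.0250), Smek2 (0.0259), Stag2 (0.0425), RGD1307830 (0.0435), and Son (0.0439), and Mapk6 averaged 238 CPM for SASCs, 176 CPM for PASCs, and 173 CPM for EASCs. The likeness rests on 9 samples in 3 groups that share their scaling and is a description only.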

How the data were processed

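RNA of 9 cultures, 3 each of SASCs, PASCs, and EASCs, was sequenced as paired-end reads. The authors trimmed the reads, aligned them with TopHat, and deposited whole-number counts per gene without normalization for 35362 genes. The methods name the genome rn6 and the submitters' processing notes rn5, and the coordinates in the table fit rn6. The program that counted the reads and its use of strand are not given in the sources used here.

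The deposited counts were scaled by TMM and tested with edgeR 4.0.16 (R 4.3.3), in its quasi-likelihood test without a block, over 1 model of all 9 samples and the 14770 genes that passed filterByExpr, with Benjamini-Hochberg adjustment. DEGs had to pass both thresholds of the study, a fold change of 2 and an adjusted p of 0.05. FPKM were computed here from the scaled CPM and the gene length in the table. Counting intervals are exact at 95%. Samples of 1 group differed by more than counting noise (chi-square per degree of freedom 4.51 to 17.5), so none was taken for repeated sequencing of 1 library. The check cannot tell wells of 1 culture from separate cultures. On simulated data for EASCs against SASCs with 14770 genes, 200 of 200 changed genes were recovered by adjusted p and direction, and 11 unchanged genes passed. All genes had 1 common spread, and the changed genes averaged above 1 CPM and were altered by 2-fold or more. Changed genes at lower levels and spreads that differ between genes were not simulated, so the recovery does not extend to them.

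The members and lists were chosen with earlier results of these data known. The text names the members, the other receptors and inhibitors, the neighbours of Il1rl1, up to 5 DEGs with the largest change per list and comparison against SASCs, a fixed set of central pathway genes, and the 5 closest patterns. Lif, Ptgs2, Kit, Gata2, Gata3, Il7r, Areg, Cd163, Mrc1, C1qb, Itgam, Upk3b, Krt18, Bnc1, and the DEGs between EASCs and PASCs were named after their values were seen. Some genes that the rule would name are not reported here. Alternatives were DESeq2 1.42.0, limma-voom 3.58.1, scaling by total counts, removal of ribosomal RNA genes, no filter, a replicate block, the 2 compared groups alone, no fold threshold, and leaving out each sample in turn. The counts over pathway lists under these settings were added after seeing the data.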

Additional observations from a re-analysis of the deposited data

Results flagged for a closer look

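Il1rn differed in direction between the visceral groups. Against SASCs it was upregulated in PASCs and downregulated in EASCs, and the difference itself, tested by edgeR as EASCs against PASCs, was a log2 fold change of -5.35 (SE 0.0849, adjusted p = 7.41e-26), with all 3 EASC samples below all 3 PASC samples. Leaving out each sample in turn gave -5.47 to -5.23.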

How the results depend on the processing

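Over all alternatives, the fold changes of the members kept their direction and their side of the adjusted p threshold in 310 of the values compared, lost significance in 17, gained it in 5, and reversed in 1. Scaling by total counts, which follows the share of ribosomal RNA, moved the median log2 fold change of all genes to -0.39 in EASCs, -0.33 in PASCs, and -0.08 between EASCs and PASCs. DEGs then numbered 1349 higher and 3426 lower in EASCs (2002 and 2103 with TMM) and 1262 and 3169 in PASCs (1779 and 2200 with TMM). Under this scaling Il1rl1 stood at 1.72 in EASCs, 0.87 in PASCs, and 0.86 between them, Il1r2 in PASCs reversed to -0.18, and 7 signal transduction genes were DEGs in EASCs. Without the fold threshold, DEGs numbered 10298 (69.7% of all genes) in EASCs and 10227 (69.2%) in PASCs against SASCs and 4530 (30.7%) between EASCs and PASCs. Of the 5 members that all groups carried past the filter, 5, 4, and 1 were among them. Fitting only the 2 groups compared left 1 member between EASCs and PASCs.

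Leaving out single samples gave 2 to 3 called members in EASCs against SASCs, 2 in PASCs against SASCs, and 1 to 2 between EASCs and PASCs, where Il18 was the gene lost. The cause was not tested. These counts, like that with only the 2 groups fitted, draw on Il1a and Il18. They are partly fixed by the filter and are not read as stability or against the background. Il1r1 between EASCs and PASCs passed with DESeq2 (adjusted p = 0.0193), limma-voom (0.0256), ribosomal RNA genes removed (0.0415), the replicate block (0.0377), and without SASC sample 3 (0.0489).

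Samples with the same number did not deviate together (correlations of -0.03 to 0.04 across genes). This cannot tell whether equal numbers mark a shared rat or batch, and the labels do not say. With the replicate block, DEGs numbered 4061 in EASCs and 3944 in PASCs against SASCs and 1067 between EASCs and PASCs, and no member other than Il1r1 changed its side of the threshold. Genes with a few counts per sample, namely Il1a, Il1b, Il18, Sigirr, and Map2k6, are limited by depth.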
